A study of Mus musculus with 24 samples.

Results

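The genes described here build sterols and fatty acids in mouse brain microglia: 18 enzymes of sterol synthesis, 6 enzymes of fatty acid synthesis, and 4 genes that regulate these pathways or move sterol. They were a fixed list of 28 mouse symbols matched by Ensembl identifier to the rows of the table of gene counts. All 28 were found once among 49315 gene identifiers, and all 28 were among the 17579 genes that passed the filter on low counts and were tested. RNA was sequenced from microglia sorted as CD45int CD11b+ cells from adult brains, in 24 libraries that fall into 8 groups of 3 replicates. Every group had received tamoxifen, and each state was sampled from mice labelled Cx3cr1 Cre- and mice labelled Cx3cr1 Cre+, in which a tamoxifen-inducible Cre recombinase expressed from the Cx3cr1 locus (Cx3cr1creERT2) was used to delete Dicer1, the ribonuclease that makes mature miRNAs. The naive state had no diet treatment, and its tamoxifen is labelled as given at the start. The demyelination state had 6 weeks of cuprizone, a copper chelator that kills oligodendrocytes, with tamoxifen at 4 to 5 weeks of age. Both remyelination states had 6 weeks of cuprizone and then 6 weeks of normal diet, with tamoxifen either at 4 to 5 weeks of age (start-tamoxifen remyelination) or in week 5 of cuprizone feeding (peak-tamoxifen remyelination). Cre- and Cre+ below stand for libraries so labelled. A Cre allele placed at Cx3cr1 can lower Cx3cr1 itself, so effects of Dicer1 loss and of the Cre allele cannot be told apart. Cells other than microglia that express Cx3cr1 can also carry the deletion.

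Cholesterol synthesis starts from acetyl-CoA, runs through mevalonate to farnesyl diphosphate, closes the first ring system at lanosterol, and ends with the removal and shifting of methyl groups and double bonds. Fatty acid synthesis draws on the same acetyl-CoA, which Acly releases from citrate, and is followed by elongation and desaturation. The transcription factors encoded by Srebf2 and Srebf1 switch on mainly sterol and mainly fatty acid genes, respectively, and Insig1 holds them back when sterol is plentiful. Microglia in a demyelinating brain take up myelin, which is rich in cholesterol, and must store, export or modify it.

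Library totals were 19476284 to 44526670 counts in the naive state, 21865238 to 32708382 in demyelination, and 8873275 to 12560540 in both remyelination states together. The lower totals of the remyelination libraries move with the state, and their part in differences from the other states was not tested. Dicer1 itself was measured at 18.6, 11.1 and 12.1 CPM (counts per 1000000 of the TMM-adjusted library size) in naive Cre- and at 21.8, 22.1 and 24.3 CPM in naive Cre+, and over all 24 libraries it ranged from 11.1 to 39.1 CPM. These counts cover whole genes, so reads from exons that the deletion leaves in place are included and the deletion is not checked by them. Cx3cr1 was at 1.61% to 2.18% of the Cre- mean of its state in 3 libraries (naive Cre+ replicate 1 and demyelination Cre+ replicates 1 and 3) and at 41.5% to 59.3% in the other 9 Cre+ libraries. Start-tamoxifen Cre+ replicate 1 was the highest of its group for 23 of the 28 genes, and peak-tamoxifen Cre+ replicate 3 had a summed neutrophil marker level of 5091 CPM, against 439.9 and 451.1 CPM in the other two of its group. Microglia markers were high in every library (10 genes, 36150 to 76090 CPM in sum), and 10 myelin and oligodendrocyte markers summed to 163.3 to 229.6 CPM. In bulk RNA from sorted cells, a change in the share of another cell type and a change of RNA per cell cannot be told apart.

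Promoter windows of RefSeq (GRCm38.p6, 250 bases before to 50 after a start) were at hand for 22 of the 28 genes, in 27 windows. Shown are the 200 bases before the start of 3 sterol enzymes that appear in the results below, with capitals marking each match, on either strand, to the sterol regulatory element form TCACNCCAC and to the CCAAT box. Hmgcs1 is at chr13:119690151-119690350 (plus strand), Ebp at chrX:8193513-8193712 (minus strand) and Sc5d at chr9:42264301-42264500 (minus strand), each printed 5′ to 3′ along its gene.
Hmgcs1: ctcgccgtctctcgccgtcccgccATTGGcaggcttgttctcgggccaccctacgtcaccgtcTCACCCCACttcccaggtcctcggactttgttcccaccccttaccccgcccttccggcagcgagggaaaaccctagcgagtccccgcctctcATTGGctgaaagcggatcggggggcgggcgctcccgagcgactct
Ebp: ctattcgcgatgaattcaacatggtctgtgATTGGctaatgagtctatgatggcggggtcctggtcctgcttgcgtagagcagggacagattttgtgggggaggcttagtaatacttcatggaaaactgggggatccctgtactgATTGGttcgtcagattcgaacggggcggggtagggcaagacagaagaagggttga
Sc5d: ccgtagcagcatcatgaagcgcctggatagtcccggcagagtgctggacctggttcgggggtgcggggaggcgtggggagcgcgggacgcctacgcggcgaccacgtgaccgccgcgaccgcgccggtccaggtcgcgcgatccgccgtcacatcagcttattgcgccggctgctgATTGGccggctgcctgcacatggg
Hmgcs1 had the only match to TCACNCCAC among the 27 windows, beginning at position -137 from the start, and this motif was in 1.24% of all 32851 windows of that length. The CCAAT box was in 20 of the 27 windows and in 37.4% of all windows, and its matches shown here begin at -176 and -45 in Hmgcs1, -170 and -55 in Ebp and -24 in Sc5d. No match of one motif overlapped a match of the other. A match is a description of letters, and no binding was measured here.

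Per exon length, the 28 genes spanned a wide range of levels. RPKM values (CPM divided by exon length in kilobases), averaged over the 8 groups, were highest for Acly (45.4), the desaturase gene Scd2 (32.5) and the sterol isomerase gene Ebp (30.7). They were lowest for the elongase gene Elovl6 (0.192) and the sterol transfer gene Stard4 (0.835). Elovl6 had 7 to 63 counts in a library and Stard4 had 28 to 151, so their values carry more counting error than those of Acly, which had 2176 to 9683.

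In naive microglia, 9 of the 28 genes were lower in Cre+ than in Cre- and 0 were higher. The test was edgeR's quasi-likelihood F test over all 24 libraries, with a call at a Benjamini-Hochberg adjusted p under 0.05. Of all genes tested, 13.7% were lower and 14.7% were higher in this comparison, so the share of members called lower stood above the background and that of members called higher below it. The median log2 fold change was -0.38 over the 18 sterol enzymes, of which 15 were below 0, and -0.03 over the 6 fatty acid enzymes, against -0.01 over all genes tested. The genes that fell were spread along both pathways: Mvd before farnesyl diphosphate, Fdft1 and Sqle on the way to lanosterol, Nsdhl, Ebp and Sc5d after it, Stard4 among the transfer genes, and Elovl6 and Scd2 among the fatty acid enzymes.

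Sc5d, the desaturase that acts near the end of cholesterol synthesis, was at 48.2, 49.1 and 48.7 CPM in naive Cre- and at 27.5, 28.1 and 27.6 CPM in naive Cre+. The groups did not overlap, and replicates of each lay within 1 CPM of each other. Its log2 fold change was -0.81 ± 0.10 (SE, n = 3 in each group, edgeR adjusted p = 3.48e-06). Ebp, whose protein shifts a double bond in the sterol ring, was at 97.7, 105 and 98.1 CPM in Cre- libraries, compared with 70.5, 68.8 and 66.0 CPM in Cre+. Every Cre+ library was below every Cre- library, with a log2 fold change of -0.55 ± 0.09 (edgeR adjusted p = 0.000101). Nsdhl, a dehydrogenase in the removal of methyl groups after lanosterol, was at 23.4, 23.5 and 24.9 CPM in Cre- libraries, compared with 17.2, 17.3 and 17.4 CPM in Cre+. These values did not overlap either, and the log2 fold change was -0.47 ± 0.11 (edgeR adjusted p = 0.00264).

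Among the earlier steps, Mvd, which makes isopentenyl diphosphate, was at 8.12, 8.29 and 9.73 CPM in naive Cre- and at 5.90, 6.28 and 6.04 CPM in naive Cre+ (log2 -0.52 ± 0.15, edgeR adjusted p = 0.012). Fdft1, squalene synthase, was at 17.0, 19.1 and 12.8 CPM in Cre- libraries, compared with 11.04, 10.1 and 10.4 CPM in Cre+ (log2 -0.63 ± 0.18, edgeR adjusted p = 0.0109). Sqle, squalene epoxidase, was at 7.19, 6.23 and 7.36 CPM in Cre- libraries, compared with 4.87, 3.79 and 4.58 CPM in Cre+ (log2 -0.65 ± 0.24, edgeR adjusted p = 0.0425). The 2 groups did not overlap for any of these genes, but the calls of the 3 genes rest on single libraries: Mvd missed the threshold without Cre- replicate 3 (adjusted p = 0.0558), Fdft1 without Cre- replicate 2 (0.0781), and Sqle without any of the 6 libraries (0.0505 to 0.153). Fdft1 shares 774 exon bases, 18.3% of its exons, with Ctsb on the opposite strand, and with no strand setting known for the counting, reads of both genes cannot be told apart there.

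Scd2, which puts a double bond into long saturated fatty acids, was at 95.1, 112 and 107 CPM in naive Cre- and at 49.2, 61.4 and 72.6 CPM in naive Cre+. Cre+ libraries were lower without overlap, by -0.78 ± 0.13 on the log2 scale (edgeR adjusted p = 8.43e-05). Scd2 and its close paralog Scd1 could share reads in the authors' counting, so the level of each is uncertain. Elovl6, which elongates palmitate, was at 1.81, 1.67 and 1.55 CPM in Cre- libraries, compared with 0.328, 0.604 and 0.423 CPM in Cre+, with a log2 fold change of -1.83 ± 0.40 (edgeR adjusted p = 0.00127). Stard4, a carrier of cholesterol between membranes, was at 4.17, 2.99 and 3.86 CPM in Cre- libraries, compared with 1.54, 1.60 and 1.08 CPM in Cre+, with a log2 fold change of -1.37 ± 0.31 (edgeR adjusted p = 0.00147). Neither gene had overlapping groups, and both stand near the bottom of the range of levels.

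**Figure D1:**
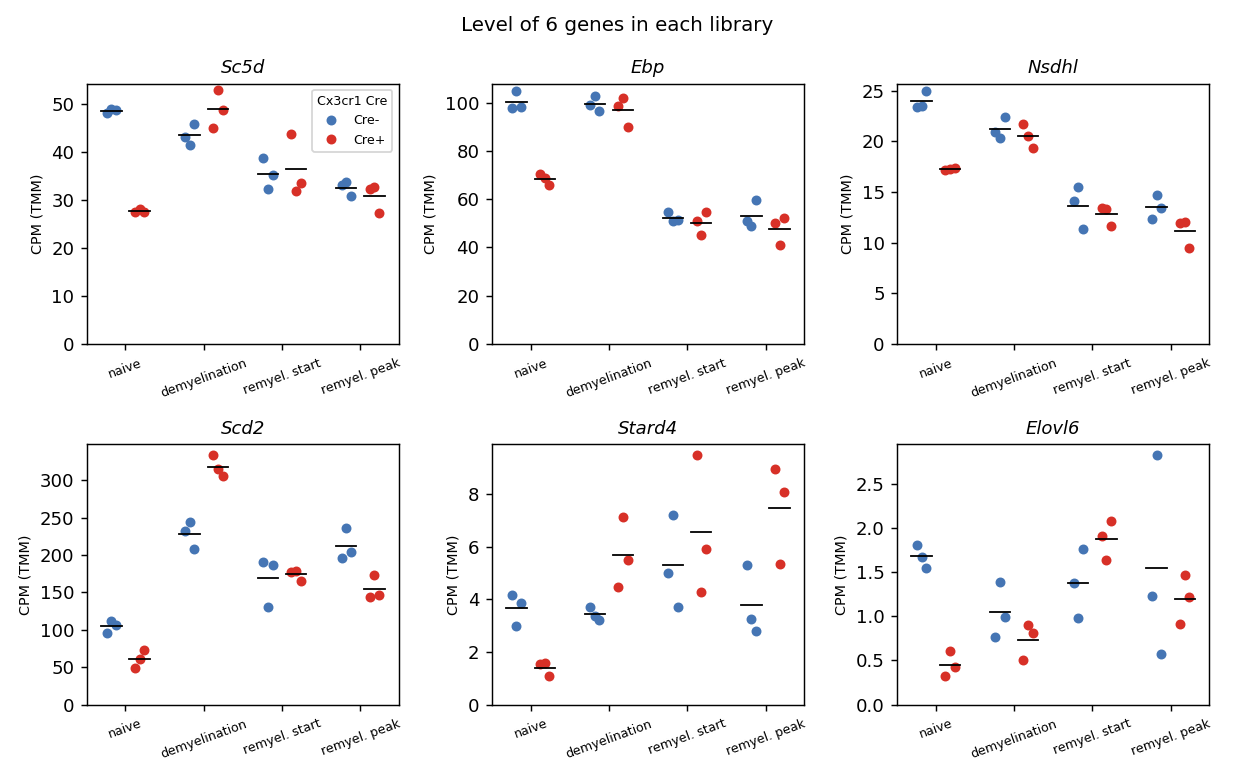
CPM (y axis, from 0) of Sc5d, Ebp, Nsdhl, Scd2, Stard4 and Elovl6 in each of the 24 libraries, by state (x axis) and Cre label (colour); each point is a library and each black line is the mean of 3. In the naive state the Cre+ points of all 6 genes lie below the Cre- points (Sc5d 27.5 to 28.1 against 48.2 to 49.1 CPM).

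The remaining sterol and fatty acid genes did not pass the test in naive microglia. Of those nearest to it, Cyp51, which removes a methyl group from lanosterol, had a log2 difference of -0.35 ± 0.14 (edgeR adjusted p = 0.0684), Mvk, mevalonate kinase, of -0.48 ± 0.20 (0.0764), Fdps, farnesyl diphosphate synthase, of -0.40 ± 0.20 (0.132) and Acaca, acetyl-CoA carboxylase, of 0.34 ± 0.18 (0.159). The regulator genes Srebf1 (0.03 ± 0.13), Srebf2 (0.25 ± 0.15) and Insig1 (0.08 ± 0.16) had no call. In the same libraries, 3 of 8 astrocyte markers and 3 of 10 microglia markers were also lower in Cre+. Summed astrocyte markers were 291.1 to 338.8 CPM in Cre+, against 431.4 to 560.1 CPM in Cre-, and summed microglia markers 62460 to 63340 against 71500 to 76100 CPM. The microglia sum includes Cx3cr1, the locus of the Cre allele, at 227.1, 4432 and 4571 CPM in naive Cre+ against 9273, 9692 and 12250 CPM in naive Cre-. Border-associated macrophage markers were lower in sum (13.1 to 16.04 against 18.81 to 26.07 CPM, with 1 of 6 higher and 1 lower by the test) and neuron markers higher (6.234 to 7.254 against 2.474 to 4.346 CPM, 1 of 7 higher). None of the astrocyte markers was at 0 in all libraries, and the part of these shifts in the results above was not tested.

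In demyelination, the calls went the other way, in mostly different genes: 6 of the 28 genes were higher in Cre+ and 0 were lower. Of all genes tested, 5.69% were higher and 3.48% lower. The median log2 fold change was 0.39 over the fatty acid enzymes and 0.16 over the sterol enzymes, of which 14 of 18 were above 0, against -0.01 over all genes tested. The genes that rose were the fatty acid genes Acaca, Fasn and Scd2, the regulator Srebf1, and the sterol enzymes Hmgcs1 and Msmo1. Of these, only Scd2 was also called in the naive state, where it was lower in Cre+.

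Acaca, whose enzyme makes the malonyl-CoA that commits acetyl-CoA to fatty acids, was at 32.7, 30.7 and 22.7 CPM in demyelination Cre- and at 53.7, 38.8 and 56.5 CPM in demyelination Cre+. The groups did not overlap, although Cre+ replicate 2 lay nearer to Cre- than the other Cre+ libraries did, and the log2 fold change was 0.79 ± 0.16 (edgeR adjusted p = 0.00315). Fasn, fatty acid synthase, was at 17.7, 20.2 and 16.4 CPM in Cre- libraries, compared with 36.1, 27.5 and 34.5 CPM in Cre+. Again Cre+ replicate 2 was the lowest of its group and above every Cre- library, with a log2 fold change of 0.85 ± 0.19 (edgeR adjusted p = 0.00773). Scd2 was at 232, 244 and 208 CPM in Cre- libraries, compared with 334, 315 and 307 CPM in Cre+ (log2 0.48 ± 0.13, edgeR adjusted p = 0.0182). Srebf1 was at 45.3, 55.2 and 46.8 CPM in Cre- libraries, compared with 79.5, 64.4 and 75.0 CPM in Cre+ (log2 0.57 ± 0.14, edgeR adjusted p = 0.00871). All 3 Cre+ libraries were above all 3 Cre- libraries for both genes. Cre+ replicate 2 was again the lowest of its group for Srebf1, but not for Scd2. Cx3cr1 was at 41.5% of the demyelination Cre- mean in Cre+ replicate 2, and at 1.87% and 1.61% in Cre+ replicates 1 and 3. The part of this difference between Cre+ libraries in the results was not tested.

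On the sterol side, Hmgcs1, which forms HMG-CoA, was at 34.4, 33.3 and 35.1 CPM in demyelination Cre- and at 45.4, 43.3 and 51.3 CPM in demyelination Cre+ (log2 0.44 ± 0.11, edgeR adjusted p = 0.0105). Msmo1, a methyl sterol oxidase, was at 83.3, 75.9 and 80.2 CPM in Cre- libraries, compared with 99.2, 106 and 111 CPM in Cre+ (log2 0.40 ± 0.12, edgeR adjusted p = 0.0287). Neither gene had overlapping groups. Of the genes nearest to a call, Fdps had a log2 difference of 0.52 ± 0.19 (adjusted p = 0.0967) and Stard4 of 0.72 ± 0.29 (0.127). Hmgcs1 shares 557 exon bases (12.1% of its exons) with Gm48342 on the opposite strand.

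**Figure D2:**
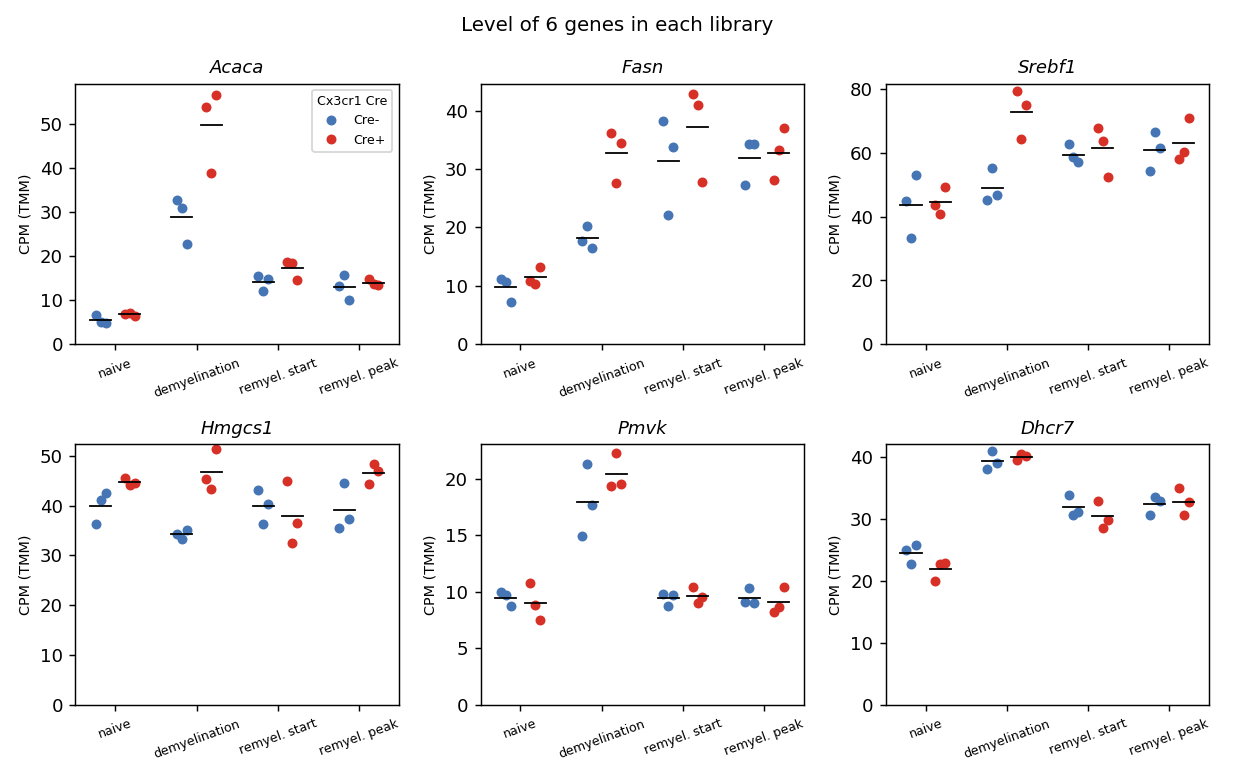
CPM (y axis, from 0) of Acaca, Fasn, Srebf1, Hmgcs1, Pmvk and Dhcr7 in each of the 24 libraries, by state (x axis) and Cre label (colour); each point is a library and each black line is the mean of 3. Acaca stands highest in demyelination (22.7 to 56.5 CPM), where Cre+ lies above Cre-, while Pmvk and Dhcr7 are raised there in both.

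These demyelination calls depend on the libraries kept. Leaving out the 3 libraries with little Cx3cr1 leaves 1 demyelination Cre+ library, whose spread is taken from the rest of the fit. The log2 fold changes of the 6 genes were then 0.38 to 0.65, and their calls could not be checked without those libraries. Without Cre+ replicate 1 alone, 2 members were called, and Fasn (0.0579), Msmo1 (0.0623), Srebf1 (0.0666) and Scd2 (0.0955) missed the threshold. Calls over all genes fell as well in that run, from 1612 to 422. Acaca kept its call with any single library left out. Hmgcs1 lost it without Cre+ replicate 3 (adjusted p = 0.0603), Scd2 also without Cre- replicate 3 (0.0906), and Msmo1 also without Cre- replicate 2, Cre- replicate 3 or Cre+ replicate 3 (0.0762 to 0.105). Marker sums differed between the groups too: 6 neutrophil markers summed to 1317 to 1667 CPM in Cre+ against 208.1 to 870.1 CPM in Cre-, and 6 monocyte markers to 464.5 to 768.2 against 212.9 to 340.4 CPM. Endothelial markers (117.3 to 121.3 against 85.12 to 106.9 CPM) and oligodendrocyte precursor markers (63.86 to 110 against 35.38 to 48.67 CPM) were also higher in sum. Of the precursor sum, Cspg4 alone (picked after its values were seen) made 63.16 to 109.2 CPM in Cre+ and was called higher, while Vcan was called lower and Gpr17, Tnr and Lhfpl3 stayed under 1 CPM in every library. Border-associated macrophage markers were lower (73.91 to 84.5 against 104.9 to 166.6 CPM). Of these markers 0 of 6 for neutrophils and 0 of 6 for endothelial cells passed the test, and for monocytes 1 of 6 was higher and 2 were lower. None of these was at 0 in all libraries, and the part of these cells in the results was not tested.

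In start-tamoxifen remyelination, 0 of the 28 genes passed edgeR's test, against 0.0341% of all genes tested. At an unadjusted p under 0.05 the count was also 0, and DESeq2 called 0 as well, against 65 genes in all. The log2 differences ran from -0.21 in Idi1, which interconverts the isoprene units, to 0.44 in Elovl6 and Scd1. In peak-tamoxifen remyelination, 2 genes were higher and 1 was lower in Cre+, against 6.99% and 4.02% of all genes tested, shares near those of the members. Stard4 was at 5.30, 3.25 and 2.80 CPM in Cre- libraries, compared with 8.94, 5.33 and 8.09 CPM in Cre+ (log2 0.99 ± 0.30, edgeR adjusted p = 0.0363). Cyp51 was at 16.8, 14.5 and 18.4 CPM in Cre- libraries, compared with 26.2, 21.9 and 21.5 CPM in Cre+ (log2 0.49 ± 0.15, edgeR adjusted p = 0.0396). Both rose without overlap, the lowest Cre+ value of Stard4 lying just above the highest Cre- value. Scd2 was at 196, 236 and 204 CPM in Cre- libraries, compared with 145, 173 and 147 CPM in Cre+, and fell by 0.45 on the log2 scale (SE 0.13, edgeR adjusted p = 0.0243). No member passed without Cre- replicate 2, Cre+ replicate 1 or Cre+ replicate 3, and with GC content and gene length corrected 1 was higher and 1 lower. Calls over all genes were 853, 2117 and 1012 without those libraries and 2033 with the correction, against 1935 in the main fit. Summed astrocyte markers were 347.5 to 465.7 CPM in Cre+ against 621.8 to 858.2 CPM in Cre-, with 3 of 8 lower. Endothelial markers (28.49 to 58.83 against 60.09 to 98.49 CPM, 1 of 6 lower) and oligodendrocyte precursor markers (4.38 to 6.582 against 7.162 to 10.44 CPM, 0 called) were also lower in sum, and neutrophil markers (439.9 to 5091 against 171.9 to 280.1 CPM, 1 of 6 higher) and monocyte markers (95.63 to 658.4 against 75.35 to 90.51 CPM, 1 of 6 higher) higher. The part of these shifts was not tested.

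**Figure D3:**
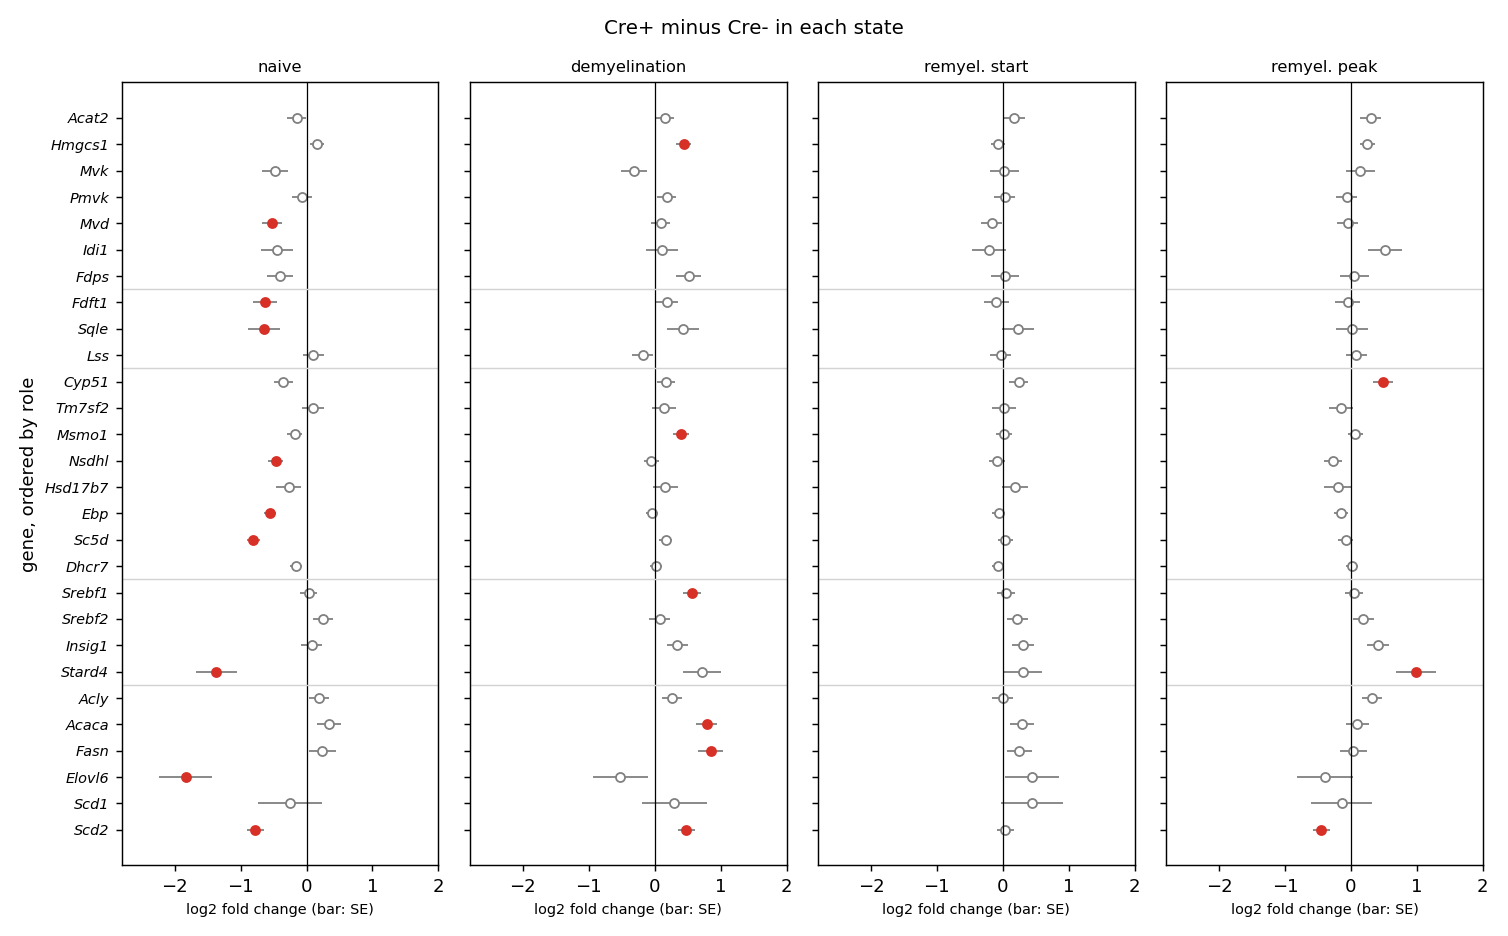
Log2 fold change of Cre+ over Cre- (x axis, bar: SE) of the 28 genes (y axis, ordered by role and separated by grey lines) in each of the 4 states, with 3 libraries in each group; filled red points passed an adjusted p under 0.05. Filled points lie left of 0 in the naive state (9 genes), right of 0 in demyelination (6 genes), and are absent in start-tamoxifen remyelination.

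The difference between the naive and the demyelination genotype effects was itself tested. For 8 of the 28 genes the effect in demyelination was higher than in the naive state, and for 0 it was lower, against 7.97% and 7.78% of all genes tested. The median difference was 0.47 over the sterol enzymes, with 17 of 18 above 0, and 0.59 over the fatty acid enzymes. The median and the share above 0 over all genes tested are not given here for this difference. Sc5d had genotype effects of -0.81 in the naive state and 0.17 in demyelination, a difference of 0.98 ± 0.15 (edgeR adjusted p = 0.00015). For Scd2 the effects were -0.78 and 0.48, opposite in sign and each past its own threshold, a difference of 1.26 ± 0.18 (edgeR adjusted p = 0.000108). Stard4 had effects of -1.37 and 0.72, a difference of 2.09 ± 0.42 (edgeR adjusted p = 0.00188), and Ebp of -0.55 and -0.04, a difference of 0.51 ± 0.13 (0.00997).

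Msmo1 (0.58 ± 0.16, adjusted p = 0.016), Fdps (0.92 ± 0.28, 0.0237), Sqle (1.08 ± 0.34, 0.0298) and Fdft1 (0.81 ± 0.26, 0.0333) completed the list of genes whose genotype effect differed by edgeR's test. Sc5d, Scd2 and Stard4 kept their calls in every alternative run that left replicates in each group. The run without the libraries with little Cx3cr1 leaves 1 demyelination Cre+ library and could not check calls. Ebp missed the threshold with GC content and length corrected (0.38, adjusted p = 0.0656), and Msmo1 without naive Cre+ replicate 3 (0.0561). Fdps missed it without naive Cre- replicate 2 (0.0584) or demyelination Cre- replicate 3 (0.0638). Sqle was lost with any of 6 single libraries left out (naive Cre+ replicate 2 or 3, demyelination Cre- replicate 1 or 2, demyelination Cre+ replicate 2 or 3; 0.0518 to 0.0785). Fdft1 was lost with any of 7 (naive Cre- replicate 1 or 2, naive Cre+ replicate 2 or 3, demyelination Cre- replicate 1 or 3, demyelination Cre+ replicate 2; 0.0525 to 0.103). Fdps shares 26.7% of its exon bases with Gm43738 on the same strand. Between demyelination and start-tamoxifen remyelination 0 genes differed in genotype effect by edgeR's test (background 3.74%), and Hmgcs1 lay nearest at -0.52 ± 0.16 (edgeR adjusted p = 0.0579). DESeq2 called 1 member there, against 1421 genes in all. Between both tamoxifen timings 0 differed (background 3.77%), and DESeq2 called 0 members, against 996 genes in all. At an unadjusted p under 0.05 the member counts were 6 and 1, for which the share of all genes is not given here.

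Demyelination was also compared with naive within each genotype. In Cre-, 5 of the 28 genes rose and 3 fell, against 19.7% and 16.2% of all genes tested. The median log2 change was 0.51 over the fatty acid enzymes and -0.07 over the sterol enzymes (0.34 to 0.74 for the fatty acid enzymes with single libraries left out), and the difference between these medians was not tested. For this and the later comparisons of states, the median over all genes tested is not given here. Acaca was at 6.59, 4.85 and 4.62 CPM in naive Cre- and at 32.7, 30.7 and 22.7 CPM in demyelination Cre-, with every demyelination library far above every naive library (log2 2.44 ± 0.18, edgeR adjusted p = 3.83e-11). Scd2 rose from 95.1, 112 and 107 CPM to 232, 244 and 208 CPM (log2 1.12 ± 0.13, edgeR adjusted p = 1.35e-07), and Fasn from 11.2, 10.7 and 7.26 CPM to 17.7, 20.2 and 16.4 CPM (log2 0.90 ± 0.20, edgeR adjusted p = 0.00106). Neither gene had overlapping groups.

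Only 2 sterol enzymes were higher in demyelination Cre-. Dhcr7, which carries out a last double-bond reduction, was at 25.0, 22.7 and 25.7 CPM in the naive libraries and at 38.1, 41.0 and 39.1 CPM in demyelination (log2 0.69 ± 0.09, edgeR adjusted p = 6.97e-07). Pmvk, phosphomevalonate kinase, was at 9.94, 9.73 and 8.78 CPM and then at 15.0, 21.3 and 17.7 CPM (log2 0.93 ± 0.14, edgeR adjusted p = 1.23e-05). Both were free of overlap between the states. The genes that fell were Acly (log2 -0.50 ± 0.15, edgeR adjusted p = 0.013), the sterol reductase gene Tm7sf2 (-0.49 ± 0.17, 0.0281) and the thiolase gene Acat2 (-0.37 ± 0.14, 0.0457). Acly lost its call without naive Cre- replicate 3, whose 308 CPM was the highest of its group (adjusted p = 0.128), and Tm7sf2 and Acat2 lost theirs without naive Cre- replicate 2 or 3 or demyelination Cre- replicate 1 or 2. Without naive Cre- replicate 3, 5 members were called in place of 8, and with GC content and gene length corrected the split was 5 higher and 8 lower. Calls over all genes were 5026 and 6954 in these runs, against 6309 in the main fit. Tm7sf2 shares 12.1% of its exon bases with Vps51 on the same strand. Marker sums moved with the state in Cre-: microglia markers summed to 71500 to 76100 CPM in naive and 42770 to 47520 CPM in demyelination (8 of 10 lower), border-associated macrophage markers to 18.81 to 26.07 and then 104.9 to 166.6 CPM (6 of 6 higher), and monocyte markers to 37.27 to 81.78 and then 212.9 to 340.4 CPM (5 of 6 higher). Endothelial (38.81 to 60.87 and then 85.12 to 106.9 CPM) and oligodendrocyte precursor sums (1.537 to 2.332 and then 35.38 to 48.67 CPM) also rose without overlap. Astrocyte (431.4 to 560.1 and then 290.8 to 403.2 CPM) and oligodendrocyte sums (217.3 to 227.8 and then 163.3 to 201 CPM) fell without overlap. The part of all these shifts in the results was not tested.

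In Cre+, 18 of the 28 genes rose from naive to demyelination and 3 fell, against 26.3% and 25.9% of all genes tested. The median log2 change was 0.53 over the sterol enzymes and 1.10 over the fatty acid enzymes, and these naive Cre+ libraries are the ones in which 9 members stood below Cre-. Acaca was at 6.88, 6.89 and 6.35 CPM in naive Cre+ and at 53.7, 38.8 and 56.5 CPM in demyelination Cre+ (log2 2.89 ± 0.18, edgeR adjusted p = 4.37e-13). Scd2 was at 49.2, 61.4 and 72.6 CPM and then at 334, 315 and 307 CPM (log2 2.38 ± 0.14, edgeR adjusted p = 1.22e-13). For both, the lowest demyelination library was more than 4 times the highest naive library. Stard4 was at 1.54, 1.60 and 1.08 CPM and then at 4.46, 7.12 and 5.51 CPM, again without overlap (log2 2.01 ± 0.31, edgeR adjusted p = 4.16e-06).

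Of the 18 sterol enzymes, 12 rose and 2 fell in Cre+. Those that rose ranged from Pmvk (log2 1.18 ± 0.14), Fdps (1.17 ± 0.20), Sqle (1.00 ± 0.24), Dhcr7 (0.87 ± 0.09), Sc5d (0.82 ± 0.10), Cyp51 (0.79 ± 0.14) and Fdft1 (0.76 ± 0.18) to Idi1 (0.68 ± 0.25), Mvd (0.53 ± 0.15), Hsd17b7 (0.52 ± 0.19), Ebp (0.50 ± 0.09) and Msmo1 (0.33 ± 0.11). Fasn rose by 1.52 ± 0.20, Srebf1 by 0.71 ± 0.13 and Insig1 by 0.47 ± 0.16. Acly (-0.43 ± 0.15), Tm7sf2 (-0.45 ± 0.17) and Lss, lanosterol synthase (-0.40 ± 0.16), fell, and Lss and Tm7sf2 lost their calls under DESeq2's size factors. Acly lost its call without naive Cre+ replicate 3 (adjusted p = 0.148) or demyelination Cre+ replicate 2 (0.116). Idi1, Hsd17b7, Msmo1 and Insig1 lost theirs without naive Cre+ replicate 2 or 3 (edgeR adjusted p = 0.0602 to 0.111). They also did without demyelination Cre+ replicate 2 (Idi1, 0.153) or 3 (the others, 0.0582 to 0.0834). Lss and Tm7sf2 lost theirs in several such runs too. With single libraries left out 14 to 21 members were called, the fewest without naive Cre+ replicate 3. Calls over all genes were 8293 in that run and 9364 with GC content and length corrected, against 9181 in the main fit. With GC content and length corrected, 17 of the 21 calls were kept, the calls of Mvd, Idi1, Ebp and Insig1 were lost, and Ebp moved from 0.50 to 0.10. Leaving out the libraries with little Cx3cr1 leaves demyelination Cre+ without a replicate, so the calls could not be checked in that run. The medians were then 0.69 over the sterol enzymes and 1.36 over the fatty acid enzymes. The same marker sums moved in Cre+: 62460 to 63340 and then 39820 to 42160 CPM for microglia, 13.1 to 16.04 and then 73.91 to 84.5 CPM for border-associated macrophages, and 23.87 to 78.46 and then 464.5 to 768.2 CPM for monocytes. Neutrophil (128.6 to 508.1 and then 1317 to 1667 CPM) and endothelial sums (29.44 to 44.73 and then 117.3 to 121.3 CPM) also rose without overlap. So did oligodendrocyte precursor (0.8941 to 1.769 and then 63.86 to 110 CPM) and mural sums (8.564 to 18.15 and then 18.75 to 23.27 CPM). Neuron sums fell (6.234 to 7.254 and then 2.286 to 2.83 CPM). The part of all these shifts was not tested.

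**Figure D4:**
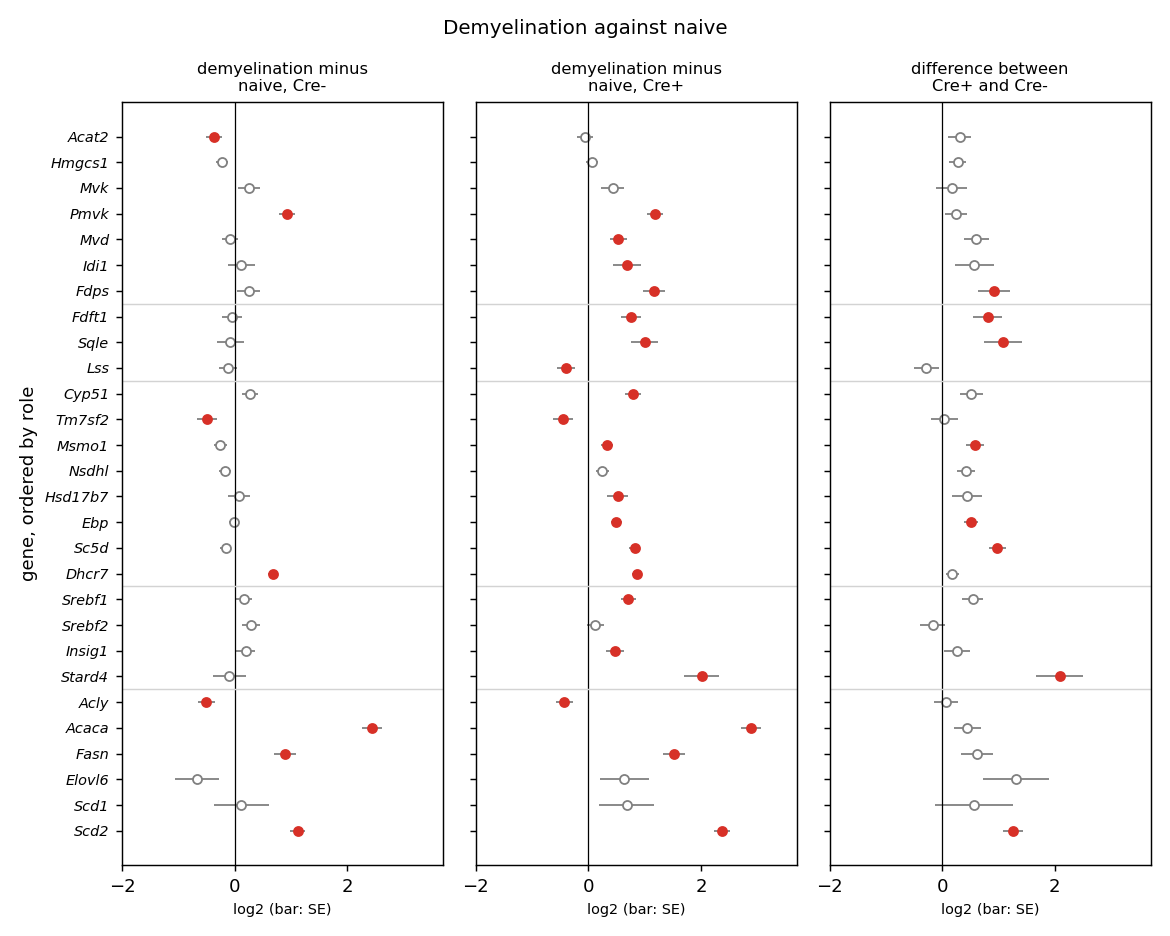
Log2 change from naive to demyelination (x axis, bar: SE) of the 28 genes (y axis, ordered by role) in Cre- and in Cre+, and the difference between both changes, with 3 libraries in each group; filled red points passed an adjusted p under 0.05. Acaca, Scd2 and Fasn lie right of 0 in both genotypes, whereas most sterol enzymes lie near 0 in Cre- and right of 0 in Cre+ (medians -0.07 and 0.53).

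From demyelination to start-tamoxifen remyelination, 5 members rose and 12 fell in Cre-, against 26.3% and 28.3% of all genes tested, and 5 rose and 12 fell in Cre+, against 32.5% and 30.8%. Acaca fell to 15.4, 12.1 and 14.7 CPM in Cre- (log2 -1.03 ± 0.17, edgeR adjusted p = 1.48e-05) and to 18.6, 18.4 and 14.6 CPM in Cre+ (-1.53 ± 0.17, 1.32e-08), which left every library above the naive ones. Ebp was lower than in demyelination in every library, at 54.6, 51.0 and 51.5 CPM in Cre- (log2 -0.93 ± 0.10, edgeR adjusted p = 1.11e-08) and at 51.1, 45.1 and 54.7 CPM in Cre+ (-0.95 ± 0.10, 3.32e-09). Pmvk (-0.93 and -1.08), Nsdhl (-0.64 and -0.68), Msmo1 (-0.56 and -0.94) and Fdps (-0.69 and -1.17) fell in Cre- and Cre+, respectively. Srebf2 rose by 0.50 ± 0.16 in Cre- and 0.63 ± 0.16 in Cre+, and Tm7sf2 and Lss rose in both. With GC content and length corrected, Srebf2 was at -0.03 in Cre- and 0.01 in Cre+ (adjusted p = 0.881 and 0.968) and Lss at 0.06 and 0.14 (0.753 and 0.448), so neither passed, and the split in Cre- was 1 higher and 10 lower. Calls over all genes in Cre- were then 9086, against 9609 in the main fit. Srebf2 and Lss also lost their calls in Cre- without start-tamoxifen Cre- replicate 3 (0.0697 and 0.17), and Fdps without demyelination Cre- replicate 1 (0.0552). Border-associated macrophage markers summed to 342.5 to 390.7 CPM in start-tamoxifen Cre- and 269.7 to 465.4 CPM in Cre+, above every demyelination library, and astrocyte markers to 432.7 to 789.8 and 540.8 to 584 CPM, above the demyelination libraries of their genotype. Microglia markers summed to 39350 to 44400 and 36150 to 40800 CPM, overlapping demyelination and below every naive library. Against demyelination, mural sums (34.06 to 56.43 and 77.75 to 95.78 CPM) also rose and oligodendrocyte precursor sums (10.07 to 15.02 and 13.44 to 19.81 CPM) fell without overlap. In Cre+ alone, monocyte (137.4 to 228.5 CPM) and neutrophil sums (363.9 to 1055 CPM) fell and neuron sums rose without overlap. In Cre- alone, endothelial sums (52.93 to 84.9 CPM) fell and oligodendrocyte sums rose without overlap. The part of these shifts in comparisons with either state was not tested.

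Against naive, start-tamoxifen remyelination had 7 members higher and 5 lower in Cre- (28.8% and 27.4% of all genes tested) and 13 higher and 4 lower in Cre+ (28.6% and 29.2%). The fatty acid enzymes had medians of 0.99 in Cre- and 1.61 in Cre+, against -0.07 and 0.24 for the sterol enzymes. Fasn was at 38.3, 22.1 and 33.7 CPM in Cre- (log2 1.69 ± 0.20 over naive, edgeR adjusted p = 3.61e-07) and at 42.8, 40.9 and 27.7 CPM in Cre+ (adjusted p = 2.4e-07). No remyelination library of Fasn overlapped the naive ones. With GC content and length corrected the splits were 3 higher and 10 lower in Cre- and 10 higher and 6 lower in Cre+, and without a filter on low counts 6 higher and 7 lower in Cre-. Calls over all genes were 10222, 10749 and 10080 in that order, against 9881 in Cre- and 10173 in Cre+ in the main fit. Between both tamoxifen timings, 0 members differed by edgeR's test in Cre- (background 0.546%) or in Cre+ (background 13.6%). DESeq2 called 0 members in Cre-, against 226 genes in all, and 1 member in Cre+. At an unadjusted p under 0.05 the member counts were 1 and 3. The share of all genes is not given here for these counts or for DESeq2 in Cre+. Acly lay nearest in Cre+ (0.45 ± 0.16, edgeR adjusted p = 0.053).

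The contrast between both arms can be followed in each library as the mean log2 CPM of an arm relative to its mean in naive Cre-. The sterol arm lay at -0.35 to -0.26 in naive Cre+, -0.02 to 0.09 in demyelination Cre- and 0.08 to 0.25 in demyelination Cre+. It lay at -0.32 to 0.09 in start-tamoxifen and -0.23 to -0.13 in peak-tamoxifen remyelination, where 0.09 belonged to start-tamoxifen Cre+ replicate 1 alone. The fatty acid arm lay at -0.37 to -0.20 in naive Cre+, where its mean is pulled down by Elovl6 and Scd2 while its median change was -0.03. It then lay at 0.50 to 0.72 in demyelination Cre-, 0.80 to 1.06 in demyelination Cre+, 0.33 to 1.13 in start-tamoxifen and 0.64 to 1.32 in peak-tamoxifen remyelination. The shift of the fatty acid arm relative to the sterol arm was -0.15 to 0.13 in the 6 naive libraries and 0.41 to 1.47 in the other 18, so these did not overlap. These are descriptions of arm means, with no test; of the 6 fatty acid enzymes, Acaca, Fasn and Scd2 rose in demyelination in both genotypes and Acly fell in both.

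**Figure D5:**
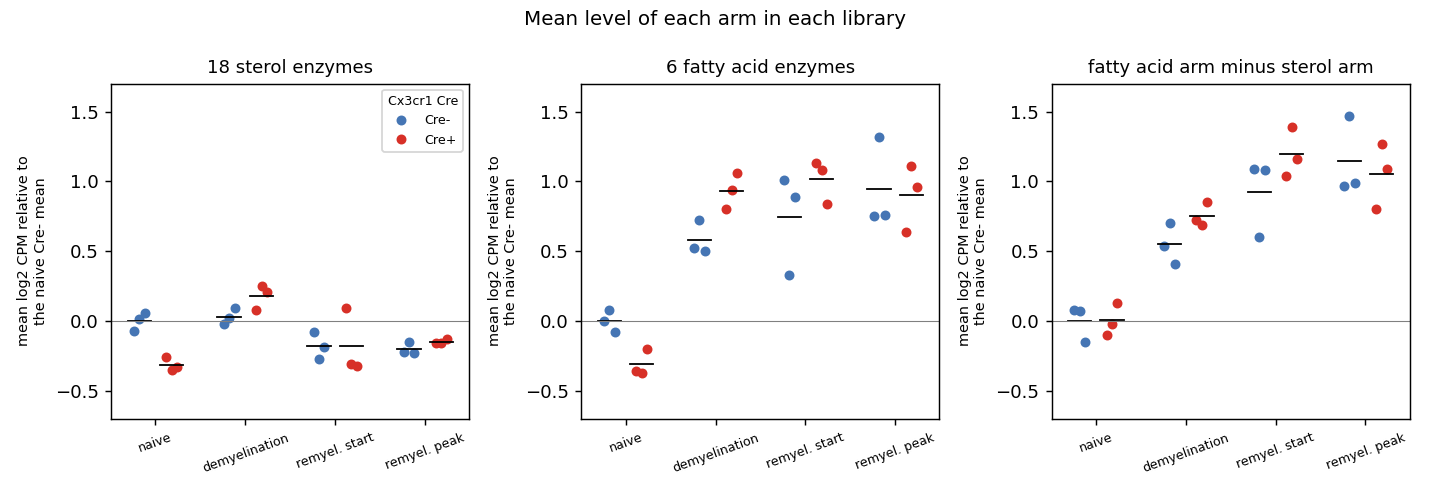
Mean log2 CPM (y axis) of 18 sterol enzymes, of 6 fatty acid enzymes, and the difference of both, each relative to its mean in naive Cre-, by state (x axis) and Cre label (colour); each point is a library and each black line is the mean of 3. The fatty acid arm relative to the sterol arm stays within -0.15 to 0.13 in naive libraries and lies at 0.41 or above in all others.

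Other genes of these pathways were taken from lists of 16, 27 and 18 genes. In naive microglia, 7 of 16 other genes of SREBP control and sterol synthesis were higher in Cre+ and 0 were lower (14.7% and 13.7% of all genes tested), among them the ubiquitin ligase gene Rnf139 (log2 1.13 ± 0.16) and the Insig-binding membrane protein genes Erlin2 (0.96 ± 0.16) and Erlin1 (0.47 ± 0.11). In demyelination 2 of the 16 were higher (Tmem97, 0.45 ± 0.11, and Erlin2, 0.51 ± 0.16) and 0 lower (5.69% and 3.48% of all genes tested). In start-tamoxifen remyelination 0 passed the test, and in peak-tamoxifen remyelination 5 were higher and 0 lower (6.99% and 4.02% of all genes tested). Tmem97, a membrane protein of the sterol pathway, was at 16.3, 13.6 and 15.1 CPM in peak-tamoxifen Cre- and at 21.4, 26.7 and 29.4 CPM in Cre+ (log2 0.79 ± 0.12, edgeR adjusted p = 8.42e-05). Those groups did not overlap.

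Of 27 other fatty acid genes, 4 were higher and 6 lower in naive Cre+, against 14.7% and 13.7% of all genes tested, so the share of higher genes was near the background. Among them were Acsl1 (0.67 ± 0.12), which activates fatty acids, and Elovl1 (-0.54 ± 0.09), an elongase of very long chains. Of 18 genes of LXR response, sterol efflux, esterification and lysosomal release, 6 were higher and 4 lower, against the same background. Their summed level overlapped, at 2998 to 3588 CPM in naive Cre- and 3111 to 3209 CPM in naive Cre+. Plin2 and Apoe, given next, were among the 4 lower genes, and the 6 higher genes are not named here. Plin2, a lipid droplet coat protein, was at 49.2, 49.6 and 58.3 CPM in naive Cre- and at 16.2, 20.2 and 17.96 CPM in naive Cre+ (log2 -1.53 ± 0.14, edgeR adjusted p = 5.07e-08). Apoe, the main lipid carrier of the brain, was at 959, 759 and 781 CPM in Cre- libraries, compared with 215, 192 and 238 CPM in Cre+ (-1.95 ± 0.21, 2.6e-06). The groups lay far apart for both. In demyelination Cre+, Cyp27a1, which oxidises cholesterol, was lower (57.7, 93.2 and 70.2 against 162, 175 and 158 CPM; log2 -1.16 ± 0.12, edgeR adjusted p = 5.7e-06) and Ch25h, which makes 25-hydroxycholesterol, was higher (0.96 ± 0.20, 0.00575). Both belong to the 3 higher and 2 lower of those 18 genes in that state, against 5.69% and 3.48% of all genes tested.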

How the data were processed

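RNA of sorted microglia was sequenced in 24 libraries. Per the submitters' processing notes, the tools were Trimmomatic 0.36, STAR 2.5.2b, featureCounts of Subread 1.5.2 and DESeq2, with build GRCm38; the strand setting is not given in the sources used here. The deposited values are whole-number counts of reads per gene, with no normalization by the authors. Of 49315 identifiers, 49056 matched GENCODE M21. The members and lists were chosen with earlier results of these data known. In the genotype comparisons and in demyelination minus naive, the members past the threshold were named, with up to 4 of the nearest. For start-tamoxifen remyelination against demyelination and against naive, only some of the called members were named. Up to 4 genes of each other list were named by smallest p, and some genes of those lists are counted but not reported by name here. Counts were fitted in R 4.3.3 with edgeR 4.0.16: TMM scaling, the filterByExpr filter, 1 mean for each of the 8 groups, the two-sided quasi-likelihood F test and Benjamini-Hochberg adjustment over 17579 genes. Fitting was tested on simulated data. SEs are those of log2 fold changes. CPM uses TMM sizes, and RPKM divides it by the union of exons. The study's design text calls the replicates biological; pooling of animals is not stated. Alternatives were DESeq2 1.42.0 (on the filtered genes) and its size factors, no filter, a correction for GC content and length, a replicate block, and leaving out libraries. No 2 libraries held identical values.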

Additional observations from a re-analysis of the deposited data

Results flagged for a closer look

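For 8 genes the difference between Cre+ and Cre- was not the same in demyelination as in the naive state, by edgeR's test of that difference over all genes. On the log2 scale the Cre+ effect was higher in demyelination by 2.09 for Stard4, 1.26 for Scd2, 1.08 for Sqle, 0.98 for Sc5d, 0.92 for Fdps, 0.81 for Fdft1, 0.58 for Msmo1 and 0.51 for Ebp. Stard4, Scd2, Sqle, Sc5d, Fdft1 and Ebp were each lower in naive Cre+ than in naive Cre-, whereas Msmo1 and Fdps were not called there. Groups of 3 libraries are too small for a check of single libraries against their group.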

How the results depend on the processing

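All 9 naive genotype calls were kept under DESeq2's size factors, no filter, the GC content and length correction, the replicate block, the DESeq2 test, and without the libraries with little Cx3cr1. The 6 demyelination calls were kept under these except the last, which leaves 1 demyelination Cre+ library and could not check them (log2 fold changes of 0.38 to 0.65). Leaving out single libraries gave 2 to 6 demyelination calls, and 0 to 2 in place of 3 in peak-tamoxifen remyelination. Calls over all genes were 422 to 2165 in these demyelination runs (1612 in the main fit) and 853 to 2117 in the peak-tamoxifen runs (1935 in the main fit). Start-tamoxifen minus demyelination genotype effects gave 0 calls, and 1 with DESeq2 size factors, the GC content and length correction, the replicate block or the DESeq2 test, 2 without a filter, and 0 to 1 with a library left out. Calls over all genes there were 657 in the main fit, 602 to 1421 under the named settings and 89 to 1173 with a library left out. Between timings, the genotype effect gave 1 without a filter; in Cre+ the timing gave 1 without a filter, with the correction, the replicate block or the DESeq2 test, and 0 to 1 with a library left out.

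Correcting GC content and length moved comparisons of states: for demyelination minus naive to 13 calls in Cre- and sterol medians of -0.20 (Cre-) and 0.38 (Cre+); for start-tamoxifen minus demyelination to 11 calls in Cre- and fatty acid medians of 0.14 and -0.37; for start-tamoxifen minus naive to sterol medians of -0.36 and -0.02 and fatty acid medians of 0.55 and 1.13. It also reversed, in start-tamoxifen minus demyelination, Srebf2 in Cre- (-0.03) and Fasn in Cre+ (-0.63), and, against naive, Mvd (-0.37) and Srebf1 (-0.10) in Cre- and Pmvk (-0.35), Mvd (-0.06) and Srebf1 (-0.01) in Cre+. Insig1 in start-tamoxifen minus demyelination Cre+ reversed without start-tamoxifen Cre+ replicate 1 (-0.35 to 0.16 over single libraries left out). The cause was not tested. Without the libraries with little Cx3cr1, medians were 0.62 (sterol, genotype effect of demyelination minus naive), 0.69 and 1.36 (sterol and fatty acid, demyelination minus naive in Cre+), and -0.52 and 0.40 (start-tamoxifen minus demyelination in Cre+).

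Leaving out single libraries gave sterol medians of -0.12 to 0.09 (start-tamoxifen genotype), -0.05 to 0.21 (timing, genotype effect), -0.53 to -0.28 (start-tamoxifen minus demyelination, Cre+), -0.17 to 0.00 and 0.10 to 0.34 (start-tamoxifen minus naive, Cre- and Cre+) and -0.13 to 0.19 (timing, Cre+). Fatty acid medians were -0.23 to 0.28 (peak-tamoxifen genotype), -0.48 to -0.09 (timing, genotype effect), 0.34 to 0.74 (demyelination minus naive, Cre-) and 0.60 to 1.16 (start-tamoxifen minus naive, Cre-), and calls in demyelination minus naive in Cre- were 5 to 9. Calls over all genes in the last of these comparisons were 5026 to 6268.

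Same-numbered Cre- and Cre+ libraries correlated in their deviations at -0.04 to 0.29 across genes, under 0.1 in most pairs. In peak-tamoxifen remyelination these pairs (0.15, 0.29 and 0.08) lay above the differently numbered ones (-0.19 to 0.05). The same held in naive (0.04, 0.06 and 0.09 against -0.07 to 0.02), whereas in the other states both kinds overlapped. The labels do not say that a number marks a shared animal or litter, so the main fit did not pair the samples. A replicate block was run as an alternative. With the replicate block, Cyp51 in naive (-0.34, adjusted p = 0.0488), Srebf1 in the genotype effect of demyelination minus naive (0.52, 0.0393) and Hmgcs1 in that of start-tamoxifen minus demyelination (-0.52, 0.0355) passed, as did Acly in peak-tamoxifen genotype (0.32, 0.0492; 4 calls in place of 3), in start-tamoxifen minus naive in Cre+ (-0.29, 0.048) and in the timing in Cre+ (0.45, 0.0157) and Lss in start-tamoxifen minus naive in Cre- (0.37, 0.0387), and Acat2 in demyelination minus naive in Cre- did not (-0.37, 0.0501). Depth limits Elovl6, Scd1 and Stard4, whose lowest counts were 7, 22 and 28.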

Other observations

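Start-tamoxifen Cre+ replicate 1 held the highest value of its group for 16 of the 18 sterol enzymes, and the highest of all 24 libraries for 6 of the 28 genes. Insig1 was at 32.1 CPM there, against 17.9 and 17.0 CPM in the other replicates. Sqle was at 16.5 against 8.27 and 8.56 CPM, and Srebf2 at 67.7 against 45.9 and 43.4 CPM. These genes were picked after their values were seen, and no test was made.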
